A study of Homo sapiens with 4 samples.

Results

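The genes described here encode the phagocyte NADPH oxidase, the enzyme complex with which neutrophils and macrophages make superoxide. The set holds 8 genes, CYBA, CYBB, NCF1, NCF1B, NCF1C, NCF4, RAC1 and RAC2, out of the 18885 genes listed in the data. They were selected by their symbols, and all 8 were found. The set was proposed because these genes were already known to differ between the 2 groups of these same libraries, so their levels and differences are given as a description, without a test.

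RNA-seq was performed on MV4-11, a human acute myeloid leukemia (AML) cell line of monocytic type, to look for genes that depend on ANP32B, a histone chaperone. The control group (NC) and the ANP32B knockdown group (sh-ANP32B) had 2 libraries each. The labels describe the NC cells as untreated and give no shRNA for them, whereas the study's methods name a control hairpin, sh-NC. The knockdown cells carried a hairpin against ANP32B delivered by lentivirus and were selected with puromycin, and which of the study's hairpins was sequenced is not given in the sources used here. If the NC cells carried no hairpin, transduction and selection cannot be told apart from the loss of ANP32B. Nothing states that the libraries of a group came from separate cultures, so every p-value below measures only the spread between these libraries, which may be technical.

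The oxidase is built from a membrane part and a cytosolic part. CYBB (gp91phox, also called NOX2) carries the heme and flavin that pass electrons from NADPH to oxygen, and CYBA (p22phox) is its membrane partner. On activation, p47phox from NCF1 and p40phox from NCF4 move to the membrane together with a Rac GTPase, RAC2 in neutrophils and RAC1 in many other cells. In myeloid development the oxidase genes are known as late genes, and loss of CYBB, CYBA, NCF1 or NCF4 is known to cause chronic granulomatous disease, in which phagocytes kill microbes poorly.

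The values are TPM, a measure of transcript abundance that accounts for gene length and sums to nearly the same total in every library, from 997271 to 998546 TPM. TPM can be compared between genes but keep no read number, so the depth is unknown. Fold changes below are differences of log2(TPM + 1), sh-ANP32B against NC, with the standard error (SE) from limma, and this scale understates the change of genes near 1 TPM. ANP32B (ENSG00000136938) had 358 and 364 TPM in NC and 54.1 and 49.3 TPM in sh-ANP32B, so 14.3% of the control level was left (log2 fold change -2.78, SE 0.056, limma adjusted p = 2.89e-05). All 7 genes chosen to mark MV4-11, PTPRC, CD33, FLT3, HOXA9, MEIS1, CD4 and SPI1, reached 1 TPM, and their sum was 981 to 997 TPM in NC and 1399 to 1406 TPM in sh-ANP32B. Within that sum, FLT3, HOXA9 and MEIS1 were lower in both knockdown libraries, and the other markers were higher. In bulk RNA, a change in the share of cells of one type and a change in RNA per cell cannot be told apart.

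In all 8 genes, both sh-ANP32B libraries lay above both NC libraries, a pattern found in 42.5% of the 16937 genes tested. Since the genes were chosen on these libraries, no calls are given for them. Any other gene was called where its log2 fold change passed 0.5 in size and its p, before adjustment, was under 0.05. This rule called 20.2% of all genes tested higher (3413 genes) and 10.8% lower (1833 genes), and at an adjusted p below 0.05 it called 17.9% higher and 10.1% lower. The share of lower calls among all calls was 34.9%, and it was 47.1% after median-of-ratios scaling and 50.6% after quantile normalization. The median log2 fold change was 1.77 over the 8 genes and 0.08 over all genes tested. The former takes NCF1 and its near-identical copies NCF1B and NCF1C as separate genes, although they may share reads. The median over all genes moved to -0.04 with quantile normalization, a shift of 0.12. All 8 genes passed the filter of 1 TPM in 2 libraries, and each had over 1 TPM in every library.

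**Figure D1:**
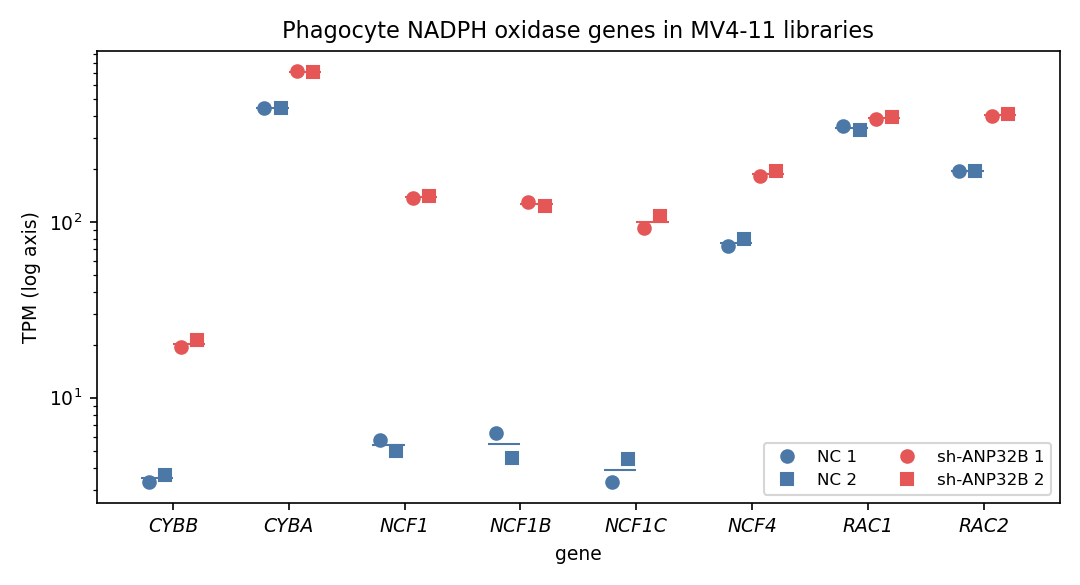
TPM of each oxidase gene in each library on a log axis, with circles for replicate 1, squares for replicate 2, blue for NC, red for sh-ANP32B and a bar at each group mean. NCF1, NCF1B and NCF1C lie between 3.30 and 6.29 TPM in NC and between 91.6 and 141 TPM in sh-ANP32B, and RAC1 shows the smallest gap between the groups.

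The membrane subunits stood far apart in level. CYBB (ENSG00000165168, hg38 chrX:37780018-37813461, plus strand) had 3.33 and 3.62 TPM in NC and 19.3 and 21.3 TPM in sh-ANP32B. Both knockdown libraries were above both controls, with means of 3.48 ± 0.203 and 20.3 ± 1.43 TPM (SD, n = 2). The log2 fold change was 2.25 (SE 0.120), a ratio of 5.85 between the mean TPM. In NC, CYBB was a low gene, above 34.8% and 35.3% of the listed genes, whereas in sh-ANP32B it was above 61.4% and 63.5% of them.

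CYBA (ENSG00000051523, chr16:88643275-88651083, minus strand) had 446 and 443 TPM in NC and 717 and 711 TPM in sh-ANP32B. It was the highest of the 8 genes in every library, and the groups were apart by far more than the replicates (444.4 ± 1.80 and 714 ± 3.78 TPM, SD, n = 2). The log2 fold change was 0.68 (SE 0.032). Since the gp91phox and p22phox proteins pair with each other, the ratio of their transcripts was also taken. There were 134 and 122 TPM of CYBA per TPM of CYBB in NC, and 37.1 and 33.3 in sh-ANP32B. The excess of CYBA transcript was thus smaller in both knockdown libraries, but CYBB was still the lower partner in all 4.

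NCF1 (ENSG00000158517, chr7:74774011-74789315, plus strand) encodes p47phox, the organizer that is phosphorylated on activation and brings the cytosolic subunits to the membrane. It had 5.73 and 4.998 TPM in NC and 136 and 141 TPM in sh-ANP32B. The means were 5.37 ± 0.520 and 138 ± 3.42 TPM (SD, n = 2), a ratio of 25.8 and a log2 fold change of 4.45 (SE 0.082), the highest of the 8 genes. It went from above 42.4% and 39.9% of the listed genes in NC to above 93.9% and 94.3% of them in sh-ANP32B.

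Chromosome 7 carries a pair of near-identical copies of NCF1, which GENCODE annotates as unprocessed pseudogenes. NCF1B (ENSG00000182487) lies at chr7:73220646-73235787 on the plus strand and NCF1C (ENSG00000165178) at chr7:75156639-75172044 on the minus strand. The start of exon 2 is shown because a GT repeat there, in capitals, is the known difference between the gene and its copies. It is read 5′ to 3′ on the strand of each gene from hg38, at chr7:74777251-74777300 for NCF1, chr7:73223862-73223909 for NCF1B and chr7:75168679-75168726 for NCF1C, and the repeat has 2 GT units in NCF1 and 1 unit in each copy.
NCF1: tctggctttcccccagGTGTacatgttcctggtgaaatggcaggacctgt
NCF1B: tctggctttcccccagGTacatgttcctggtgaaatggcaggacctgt
NCF1C: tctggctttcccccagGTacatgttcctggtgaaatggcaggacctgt
Over the 1349 bases of the NCF1 transcript (11 exons), the NCF1B exons differed by 9 edits (99.3% identity) and the NCF1C exons by 10 edits (99.3% identity). Of the 1250 stretches of 100 bases in NCF1, 49.4% were found unchanged in NCF1B, 41.6% in NCF1C and 60.2% in at least 1 of the copies. A further GENCODE gene of the same name, NCF1B (ENSG00000290838), shares 1125 exonic bases with NCF1B. How the authors assigned reads that fit several places is not given in the sources used here, so the split between the 3 genes is uncertain.

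NCF1B had 6.29 and 4.56 TPM in NC and 129 and 123 TPM in sh-ANP32B, a log2 fold change of 4.32 (SE 0.136). NCF1C had 3.30 and 4.48 TPM in NC and 91.6 and 108 TPM in sh-ANP32B, a log2 fold change of 4.37 (SE 0.145). For both copies the knockdown libraries were above the controls by a similar ratio to NCF1, 23.2 for NCF1B and 25.7 for NCF1C. The summed TPM of the 3 genes was 15.3 and 14.0 TPM in NC and 357 and 371 TPM in sh-ANP32B, a ratio of 24.8. Since TPM divides reads by the length of each gene (3413 exonic bases in GENCODE for NCF1, 1254 for NCF1B and 1427 for NCF1C), this sum also depends on how shared reads were assigned. NCF1 held 37.4% and 35.6% of that sum in NC and 38.1% and 37.9% in sh-ANP32B. The share of NCF1 was thus between 35.6% and 38.1% in all 4 libraries. NCF1B and NCF1C traded shares between replicates, NCF1C holding 21.6% and 31.9% in NC and 25.7% and 29.1% in sh-ANP32B.

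**Figure D2:**
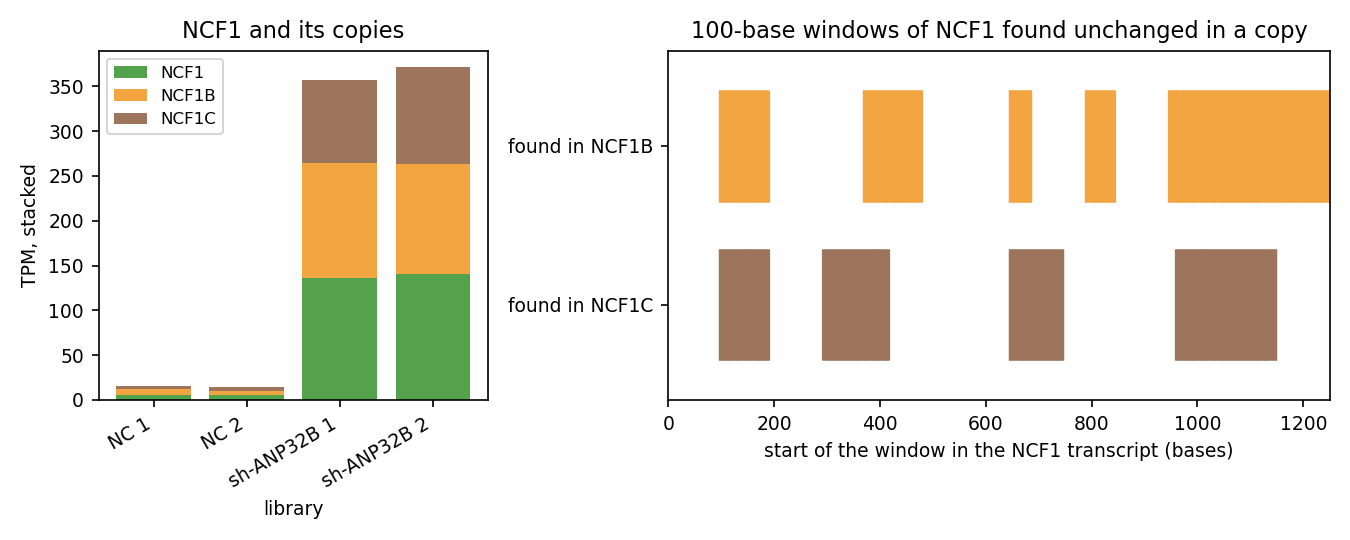
Left, stacked TPM of NCF1, NCF1B and NCF1C in each library, and right, the starts of the 100-base stretches of the NCF1 transcript that are found unchanged in each copy, in bases from the transcript start. The stacks reach 15.3 and 14.0 TPM in NC and 357 and 371 TPM in sh-ANP32B, and 49.4% of the stretches are found in NCF1B and 41.6% in NCF1C.

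NCF4 (ENSG00000100365, chr22:36860988-36878017, plus strand) encodes p40phox, which binds the lipid phosphatidylinositol 3-phosphate on the phagosome and sustains the activity of the oxidase there. It had 72.4 and 79.4 TPM in NC and 181 and 195 TPM in sh-ANP32B. The groups did not overlap, and the log2 fold change was 1.30 (SE 0.064), a ratio of 2.48. NCF4 shares 27 exonic bases with NCF4-AS1 on the opposite strand, and the handling of strand is not given in the sources used here.

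The level of NCF4 relative to NCF1 and its copies differed between the groups. In NC, there were 4.73 and 5.66 TPM of NCF4 for each TPM of the summed NCF1 copies, and in sh-ANP32B 0.508 and 0.525 TPM. NCF4 was therefore above that sum, which includes the pseudogenes, in both control libraries and below it in both knockdown libraries. NCF1 alone was below NCF4 in all 4 libraries, with 12.6 and 15.9 TPM of NCF4 per TPM of NCF1 in NC and 1.33 and 1.39 in sh-ANP32B.

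RAC2 (ENSG00000128340, chr22:37225270-37259594, minus strand) encodes the Rac GTPase of blood cells that switches on the oxidase. It had 195.2 and 195.2 TPM in NC and 397 and 409.6 TPM in sh-ANP32B, a log2 fold change of 1.04 (SE 0.037). RAC1 (ENSG00000136238, chr7:6374527-6403967, plus strand), the widely expressed relative that also serves the cytoskeleton, had 349 and 330.4 TPM in NC and 383 and 392 TPM in sh-ANP32B. Its groups did not overlap, but its log2 fold change of 0.19 (SE 0.042) was the smallest of the 8, under the limit of 0.5 and not far from the median of all genes. GENCODE names 9 pseudogenes of RAC1, of which 1 is listed in the data, and reads that they share with RAC1 cannot be separated in TPM.

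The order of the Rac genes differed between the groups. There were 0.559 and 0.591 TPM of RAC2 for each TPM of RAC1 in NC, and 1.04 and 1.05 in sh-ANP32B. RAC3, the remaining Rac gene, had 330.1 and 332 TPM in NC and 206 and 187 TPM in sh-ANP32B, and it fell (log2 fold change -0.75, SE 0.054, limma adjusted p = 3.54e-04). RAC2 made up 22.3% and 22.8% of the summed TPM of the 3 Rac genes in NC and 40.3% and 41.4% in sh-ANP32B, and RAC3 37.8% and 38.7% in NC and 20.9% and 18.9% in sh-ANP32B. The sum itself was 874 and 857 TPM in NC and 986 and 988 TPM in sh-ANP32B, so the makeup of the Rac transcripts differed more than their amount.

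**Figure D3:**
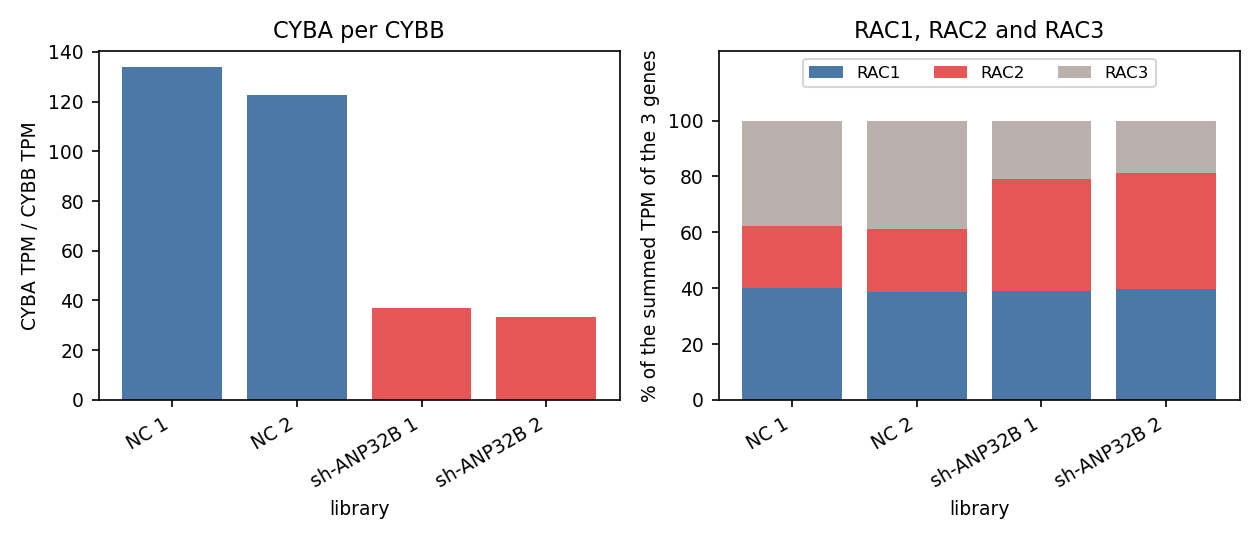
Left, TPM of CYBA divided by TPM of CYBB in each library, and right, the percent of the summed TPM of RAC1, RAC2 and RAC3 held by each gene. The bars on the left stand at 134 and 122 in NC and at 37.1 and 33.3 in sh-ANP32B, and the RAC2 share on the right goes from 22.3% and 22.8% to 40.3% and 41.4%.

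Within NC, the order by mean TPM was CYBA, RAC1, RAC2, NCF4, NCF1B, NCF1, NCF1C and CYBB. The replicate ranges of NCF1B and NCF1 overlapped, as did those of NCF1C and CYBB, and the other neighbours were apart in both libraries. In sh-ANP32B the order was CYBA, RAC2, RAC1, NCF4, NCF1, NCF1B, NCF1C and CYBB, and no neighbours overlapped. CYBB, the catalytic subunit, was the lowest gene by mean in both groups. The summed TPM of the 8 genes was 1081 and 1066 in NC and 2054 and 2100 in sh-ANP32B, of which CYBB held 0.308% and 0.340% in NC and 0.940% and 1.02% in sh-ANP32B.

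The size of the difference varied among the genes from 0.19 for RAC1 to 4.45 for NCF1 on the log2 scale, and 6 of the 8 exceeded 1, as did 6.99% of all genes tested. The 6 include NCF1 and both of its copies, which may share reads. The SE ran from 0.032 to 0.145, and the NCF1 gene and its copies, at 4.32 to 4.45, lay closer to each other than the SE of NCF1C. The genes that were lowest in NC, CYBB and the NCF1 copies, had the highest ratios, and the genes that were highest in NC, CYBA and RAC1, had the lowest.

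**Figure D4:**
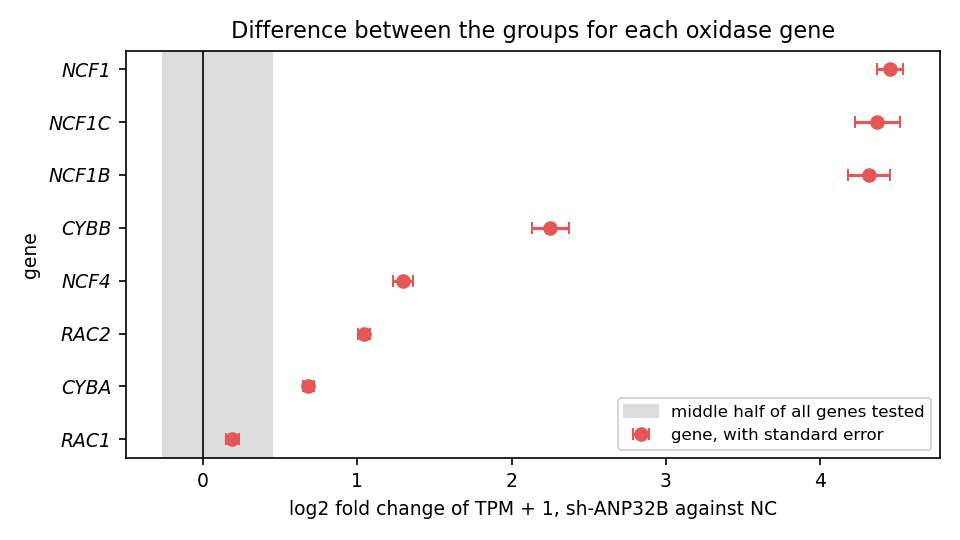
Log2 fold change of TPM + 1, sh-ANP32B against NC, for each oxidase gene with its standard error, with a grey band from -0.26 to 0.45 that holds the middle 50% of all genes tested. RAC1, at 0.19, lies inside the band and the other genes lie above it, up to NCF1 at 4.45.

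The sequence just before the transcription start is shown for CYBA, CYBB and NCF1, the 3 of the 8 genes that matched a RefSeq promoter. Each is the 250 bases before the RefSeq start on GRCh38.p14, 5′ to 3′ on the strand of the gene, at chr16:88651054-88651303 (minus) for CYBA, chrX:37779809-37780058 (plus) for CYBB and chr7:74773761-74774010 (plus) for NCF1. Capitals mark matches on either strand to GAGGAA (the box bound by PU.1 and related ETS factors), GGGCGG (the GC box of Sp1), CCAAT (the CCAAT box), TATAAA (the TATA box) and an IRF-type element (GAAA, then any 2 bases, then GAAA).
CYBA: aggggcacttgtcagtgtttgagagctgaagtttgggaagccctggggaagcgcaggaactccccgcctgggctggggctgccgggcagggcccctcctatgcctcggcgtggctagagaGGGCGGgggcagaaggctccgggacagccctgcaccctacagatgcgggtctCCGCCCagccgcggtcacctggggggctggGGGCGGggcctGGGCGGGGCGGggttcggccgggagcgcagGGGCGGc
CYBB: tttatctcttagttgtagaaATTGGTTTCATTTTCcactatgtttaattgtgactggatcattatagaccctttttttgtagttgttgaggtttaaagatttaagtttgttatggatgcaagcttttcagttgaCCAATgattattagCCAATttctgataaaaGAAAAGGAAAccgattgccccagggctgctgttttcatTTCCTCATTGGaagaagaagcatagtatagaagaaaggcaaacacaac
NCF1: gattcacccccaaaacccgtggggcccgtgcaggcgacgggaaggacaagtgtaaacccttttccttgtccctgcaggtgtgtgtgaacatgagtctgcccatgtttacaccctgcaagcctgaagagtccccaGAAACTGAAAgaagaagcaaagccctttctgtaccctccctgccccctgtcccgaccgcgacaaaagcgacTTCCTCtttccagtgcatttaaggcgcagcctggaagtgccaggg
CYBA, the gene with the high level in both groups, had a GC-rich window (73.6% G or C, against a median of 58.0% over all promoters) with 6 matches to GGGCGG, a pair of which overlap by a base. CYBB, at 34.0%, had 4 matches to CCAAT, 2 to the IRF-type element and 1 to GAGGAA, which begins 48 bases before the start and is directly followed by a CCAAT match. NCF1, at 56.4%, had 1 match to GAGGAA, 45 bases before the start, and 1 to the IRF-type element. Of the 35116 promoters, 23.6% held GAGGAA, 42.6% GGGCGG, 32.0% CCAAT, 10.7% TATAAA and 3.02% the IRF-type element. No window held TATAAA. A match is a run of letters and no evidence of binding. The promoters of NCF4, RAC1, RAC2, NCF1B and NCF1C were not analysed here.

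Genes of oxidase assembly and activation were taken as a list of 40, of which 38 were analysed. The list holds the chaperone and cytosolic partners of the oxidase, regulators of Rac, the kinases that phosphorylate p47phox and the lipid enzymes around it. Like the gene lists below, it was chosen with earlier results of these data known, so its shares are only a description. In sh-ANP32B, 11 of the 38 rose (28.9%, against 20.2% of all genes) and 2 fell (5.26%, against 10.8%), and 25 did not pass, with a median log2 fold change of 0.16 against 0.08 over all genes. The 11 include S100A8 and S100A9, which entered the test only through the knockdown libraries in which they were high. With at least 1 TPM required in every library these were not tested, and 9 rose. Over all genes 2588 then rose in place of 3413, and no share is given under that filter. At an adjusted p below 0.05 and the main filter, the counts were again 11 and 2.

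S100A8 and S100A9 encode the calprotectin subunits, which carry arachidonic acid to the oxidase in neutrophils. S100A9 had 0.690 and 0.921 TPM in NC and 18.0 and 19.2 TPM in sh-ANP32B (log2 fold change 3.44). S100A8 had 0.641 and 0.199 TPM in NC and 4.62 and 5.28 TPM in sh-ANP32B (log2 fold change 2.08). Both were under 1 TPM in the controls and entered the test only through the knockdown libraries in which they were high, so no p is given for them.

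Among the other genes of the list, those that rose included ARHGAP25, a Rac GTPase-activating protein (log2 fold change 1.05), the phospholipases D PLD2 (0.95) and PLD1 (0.72), the kinase PRKCD (0.86), the phosphoinositide 3-kinase genes PIK3R5 (0.75) and PIK3CG (0.55), and the Rac exchange factors VAV1 (0.55) and PREX1 (0.51). PIK3CG, VAV1 and PREX1 were near the limit and were not called after median-of-ratios scaling. Without NC replicate 1 the calls of PIK3CG (0.495) and PREX1 (0.47) were lost, and without sh-ANP32B replicate 1 that of VAV1 (0.499).

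CYBC1, the chaperone that CYBB and CYBA need to form a stable pair, had 171 and 171 TPM in NC and 235 and 235 TPM in sh-ANP32B. Its log2 fold change of 0.46 (SE 0.036, limma adjusted p = 4.62e-04) was below the limit of 0.5, and it passed that limit with quantile normalization (0.51). HVCN1, the proton channel that balances the charge moved by the oxidase, had 7.26 and 8.60 TPM in NC and 6.52 and 9.70 TPM in sh-ANP32B. These groups overlapped (log2 fold change 0.01, limma adjusted p = 0.971).

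Of the 11 genes taken as other NADPH oxidases and their partners, 2 were analysed. NOXA1, an activator of NOX1, had 12.9 and 14.9 TPM in NC and 28.5 and 29.6 TPM in sh-ANP32B, and it rose (log2 fold change 1.01, limma adjusted p = 8.13e-04). POLDIP2, a partner of NOX4, did not pass the limit (-0.23).

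The oxidase consumes NADPH, and 19 of 21 genes of NADPH supply and glucose uptake were analysed. In sh-ANP32B, 4 rose (21.1%, close to the 20.2% of all genes), 6 fell (31.6%, against 10.8%) and 9 did not pass, with a median log2 fold change of -0.04. HK3, the hexokinase of myeloid cells, had 2.00 and 1.58 TPM in NC and 51.2 and 46.5 TPM in sh-ANP32B (log2 fold change 4.16, limma adjusted p = 6.16e-05). It rose, and its groups were far apart.

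Of the genes that fell, MTHFD1, a folate enzyme, had 140.4 and 147 TPM in NC and 51.7 and 48.7 TPM in sh-ANP32B (log2 fold change -1.50, limma adjusted p = 8.67e-05). SLC2A1, a glucose transporter, had 77.5 and 75.5 TPM in NC and 31.0 and 35.8 TPM in sh-ANP32B (-1.17, limma adjusted p = 3.07e-04). NADK (0.68) and IDH1 (0.66) rose as well, and IDH2 (-0.84), MTHFD2 (-0.69), NADK2 (-0.56) and HK2 (-0.53) fell. The call for HK2 was lost without NC replicate 2 (-0.50).

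Superoxide is turned into peroxide and then cleared, and 25 of 32 genes of this handling were analysed. Of these, 4 rose (16%, below the 20.2% of all genes), 1 fell (4%, below 10.8%) and 20 did not pass, with a median log2 fold change of 0.11. HMOX1, the inducible heme oxygenase, had 4.52 and 4.51 TPM in NC and 13.7 and 14.0 TPM in sh-ANP32B (1.43, limma adjusted p = 4.69e-04). TXNIP, which binds thioredoxin, had 103 and 103 TPM in NC and 241 and 241 TPM in sh-ANP32B (1.21, limma adjusted p = 6.52e-05). The groups were apart for both, and CAT (catalase, 0.64) and GPX1 (glutathione peroxidase, 0.62) rose as well. TXN, thioredoxin itself, had 463 and 441 TPM in NC and 317 and 316 TPM in sh-ANP32B and fell (-0.51, limma adjusted p = 4.23e-04), a call that was lost with quantile normalization (-0.48) and without NC replicate 1 (-0.48).

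Transcription factors known to act on oxidase genes were taken as a list of 22, of which 20 were analysed. Of these, 3 rose (15.0%, below the 20.2% of all genes), 2 fell (10.0%, close to 10.8%) and 15 did not pass, with a median log2 fold change of 0.24. FOS, an AP-1 subunit, had 27.2 and 23.6 TPM in NC and 59.7 and 58.6 TPM in sh-ANP32B (1.19, limma adjusted p = 3.11e-04). CUX1, a repressor of CYBB, had 23.1 and 21.97 TPM in NC and 33.6 and 33.2 TPM in sh-ANP32B (0.55, limma adjusted p = 0.00200). Both rose, and CUX1 was not called after median-of-ratios scaling (0.45).

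SPI1, which encodes PU.1, had 250.3 and 257 TPM in NC and 361 and 361 TPM in sh-ANP32B. It rose by a log2 fold change of 0.51 (limma adjusted p = 3.35e-04), at the limit, and was not called after median-of-ratios scaling (0.41) or without NC replicate 1 (0.49). IRF8 had 291 and 315 TPM in NC and 266 and 364 TPM in sh-ANP32B, and the groups overlapped (0.04, limma adjusted p = 0.846). HOXA10, which represses CYBB, had 159.7 and 161 TPM in NC and 97.9 and 107 TPM in sh-ANP32B and fell (-0.64, limma adjusted p = 5.96e-04). MEIS1, a partner of HOX proteins, had 44.2 and 47.9 TPM in NC and 30.2 and 29.6 TPM in sh-ANP32B and fell as well (-0.61, limma adjusted p = 0.00138).

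**Figure D5:**
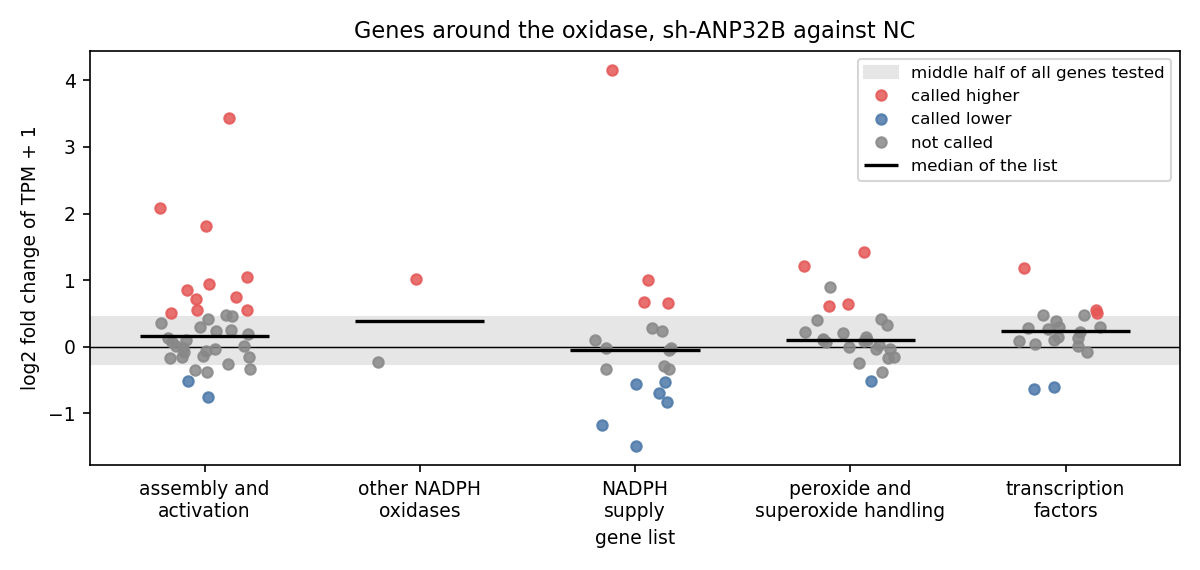
Log2 fold change of TPM + 1, sh-ANP32B against NC, of every tested gene in the 5 lists around the oxidase, in red where called higher, blue where called lower and grey where not called, with a bar at the median of each list and a grey band for the middle 50% of all genes tested. Medians run from -0.04 for NADPH supply to 0.39 for the 2 other NADPH oxidase genes, and the highest points are HK3 at 4.16 and S100A9 at 3.44.

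Markers of other cell types were read beside these results. Of 7 monocyte markers, 6 were analysed and all reached 1 TPM in at least 1 library. Their sum was 523 to 529 TPM in NC and 5543 to 5596 TPM in sh-ANP32B, of which LYZ, lysozyme, gave 471 and 463 TPM in NC and 5308 and 5260 TPM in sh-ANP32B. Without a test, ITGAM, CD68, FCGR1A and CSF1R were higher in both knockdown libraries as well. The 5 neutrophil granule markers analysed summed to 3446 to 3458 TPM in NC and 5012 to 5124 TPM in sh-ANP32B. Of that sum, ELANE gave 666 and 652 TPM in NC and 1636 and 1656 TPM in sh-ANP32B. The log2 fold changes of AZU1 (0.49), PRTN3 (0.23) and CTSG (0.28) were under the limit of 0.5. CAMP, the remaining marker, was low in NC and higher in both knockdown libraries (2.64). The 3 B cell markers analysed summed to 10.8 to 11.5 TPM in NC and 4.10 to 6.04 TPM in sh-ANP32B, and the 2 megakaryocyte markers to 2.44 to 2.63 TPM in NC and 6.80 to 7.29 TPM in sh-ANP32B. Of the T and NK cell markers only NCAM1 was analysed, at 49.4 to 49.9 TPM in NC and 56.9 to 58.1 TPM in sh-ANP32B. No defining marker analysed was at 0, and erythroid, eosinophil and basophil markers were not analysed here. The sums of the monocyte and granule markers were thus higher in the same libraries as the oxidase genes, and their part in the result was not tested.

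The genes whose pattern over the 4 libraries was most like that of CYBB were sought by the distance between log2(TPM + 1) values centred on each gene, among 15550 genes. They were GLIPR1 at a distance of 0.0836, COL4A1 at 0.114, CNR2 at 0.140, RNU4-62P at 0.153 and BCRP3 at 0.158, against a median distance of 2.20. CNR2, a cannabinoid receptor of immune cells, had 2.69 and 2.87 TPM in NC and 18.3 and 18.3 TPM in sh-ANP32B, close to CYBB in level too. RNU4-62P had 0.116 and 0.113 TPM in NC and 3.74 and 3.97 TPM in sh-ANP32B. It entered only through the knockdown libraries, and the added 1 flattens its change, so its likeness to CYBB is limited. With 2 libraries in each group, likeness to CYBB rests mainly on the difference between the groups.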

How the data were processed

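RNA of MV4-11 cells was sequenced in 2 NC and 2 sh-ANP32B libraries, grouped by their labels. The knockdown columns carry the mark S3, which no label explains, and were matched to the sh-ANP32B samples as the only columns of this cell line other than NC, by their replicate numbers. Reads were aligned to hg38 with HISAT2 (version 2.0.5, per the submitters' processing notes), and the values deposited by the authors are TPM of each gene in each library. The unit was read from the values, which sum to nearly 1 total. The quantifier, annotation and handling of strand are not given in the sources used here, and genes listed have a mean TPM of at least 0.500. Of 18885 identifiers, 17290 matched a symbol in GENCODE version 44.

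Differences were fitted with limma 3.58.1 (lmFit, eBayes with a trend, R 4.3.3) on log2(TPM + 1) over the 16937 genes that reached 1 TPM in 2 or more libraries, with Benjamini-Hochberg adjustment over all of them. The study's own test needs counts and was not used on TPM, and its limits (p below 0.05, log2 fold change beyond 0.5) were kept. The fit was also run on simulated data in which few genes changed, so that run does not check the calls given here. Exons of NCF1 were placed on hg38 with edlib 1.3.9.post1, and promoters come from RefSeq, where 3 of 8 genes matched.

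The oxidase genes, the lists and the markers were chosen with earlier results of these data known. Named genes were the 8 oxidase genes, ANP32B, CYBC1, HVCN1, SPI1, IRF8, the 2 highest and 2 lowest called genes of each list and the 5 genes most like CYBB, with other list members and markers only where a whole list is described. Some genes that this rule covers are not reported here. Alternatives were a replicate block, other filters, a pseudocount of 0.1, median-of-ratios and quantile scaling, an adjusted p, a fold limit of 1, summed NCF1 copies and each library left out.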

Additional observations from a re-analysis of the deposited data

How the results depend on the processing

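Of 245 alternative values, 213 stayed within the replicate spread or within 1.5 times the count, and none changed direction. Much of this was fixed by the rules, since a count cannot change direction. For a single oxidase gene, the replicate block and the filters return the same fold change. Leaving out a library cannot move it beyond the replicate spread. Only the pseudocount, the scalings and, for NCF1, the summed copies could move it. For CYBB the pseudocount and both scalings did. A fold limit of 1 left 1165 genes higher and 283 lower, 4 regulators higher and 0 lower, 2 genes of NADPH supply higher and 2 lower, 2 of peroxide handling higher and 0 lower, and 1 transcription factor higher and 0 lower. Median-of-ratios scaling left 1 transcription factor higher, and gave a median of 1.68 over the 8 oxidase genes in place of 1.77, while a pseudocount of 0.1 gave 1.91. Each of these medians takes NCF1 and its copies as separate genes. Quantile normalization left 0 genes of peroxide handling lower. Leaving out each library in turn gave 1 to 2 regulators lower (1 without NC replicate 2 and 1 without sh-ANP32B replicate 2) and 0 to 1 genes of peroxide handling lower (0 without NC replicate 1). Over all alternatives, the log2 fold change ran from 0.59 to 0.71 for CYBA, 2.11 to 2.51 for CYBB, 4.36 to 4.66 for NCF1, 1.20 to 1.36 for NCF4, 0.09 to 0.23 for RAC1 and 0.95 to 1.07 for RAC2, and it was 4.54 for the summed NCF1 copies.

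Same-numbered libraries did not deviate together (correlation of -0.0232 over genes, 2 pairs), so they share only a number. With the replicate block, 3391 genes were called higher and 1841 lower, and the counts of all 5 lists were those given above.

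The depth of the libraries is unknown, so no counting error can be given, and with 2 libraries in each group the spread rests on few values. Reads shared among NCF1, NCF1B and NCF1C limit each alone. The hairpin behind the knockdown libraries and the status of the control limit what the difference can be assigned to.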

Other observations

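The genes within 100 kb of the oxidase genes were read after the values above were known. Of the 31 neighbours tested, 11 were called higher and 2 lower, that is 41.9%, against 31.0% of all genes tested. The 11 include GTF2I-AS1, which entered the test only through the knockdown libraries in which it was high. The count is a description of few genes, which were named after their values were seen. MVD, a cholesterol synthesis gene 0.852 kb from CYBA, had 68.8 and 71.2 TPM in NC and 155 and 148 TPM in sh-ANP32B (log2 fold change 1.10, limma adjusted p = 1.15e-04). ZC3H18 and CTU2, also near CYBA, fell (-0.55 and -0.64), so neighbours of CYBA moved both ways.

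CSF2RB, the shared beta chain of the GM-CSF, IL-3 and IL-5 receptors, lies 35.6 kb from NCF4 and had 9.75 and 9.92 TPM in NC and 29.3 and 27.6 TPM in sh-ANP32B (1.44, limma adjusted p = 2.16e-04). CYTH4, 22.4 kb from RAC2, had 12.7 and 13.7 TPM in NC and 39.2 and 38.0 TPM in sh-ANP32B (1.48, limma adjusted p = 1.70e-04). DYNLT3, a dynein light chain 23.3 kb from CYBB, had 12.0 and 10.0 TPM in NC and 23.0 and 27.4 TPM in sh-ANP32B (1.12, limma adjusted p = 0.00163), while XK on the other side of CYBB was not called (-0.26). The nearest tested neighbours of NCF1, GTF2IRD2 and GTF2I, were not called, with log2 fold changes of 0.57 and 0.499, far under that of NCF1. GTF2IRD2 was uneven between the controls (1.01 and 5.37 TPM in NC, SE 0.53), and GTF2I lay just under the limit of 0.5. GTF2IP4 (0.53, just over that limit) and FKBP6 (1.12) near NCF1B were called higher, and the 3 neighbours of NCF1C were not called. GTF2I-AS1, 45.0 kb from NCF1, had 0.508 and 0.265 TPM in NC and 1.33 and 2.13 TPM in sh-ANP32B. It entered the test only through the knockdown libraries, so its log2 fold change of 0.97 is given without a call. None of the 3 neighbours of RAC1 was called, with log2 fold changes of 0.02 to 0.08.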
